A study of Mus musculus with 2 samples.

Results

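The cells described here were 151 of the 8231 cell barcodes kept from the Isl1CKO library, 1.83% of them (95% Clopper-Pearson interval 1.56 to 2.15). They were chosen by their own reads. A barcode was a member when unique molecular identifiers (UMIs, each standing for 1 captured transcript) of 11 genes for pancreatic digestive proteins made up at least 0.5% of all its UMIs. The 11 genes were Prss2, Try4, Try5, Cela2a, Cela3b, Cpa1, Cpb1, Pnlip, Ctrb1, Clps and Reg1. A barcode was kept when it held at least 1000 UMIs and 500 genes, with at most 15% of UMIs from mitochondrial genes. The members were set against 7568 barcodes of the same library in which the enzyme genes made up less than 0.1% of UMIs and Chga, the gene of the granule protein chromogranin A, had at least 5 UMIs. Another 484 barcodes lay between 0.1% and 0.5%, and 28 were under 0.1% with fewer than 5 Chga UMIs.

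The library came from islets of mice with the genotype Neurod1 Cre/+; Isl1 f/f, in which Cre recombinase is made from the Neurod1 locus and can act in cells that have turned on Neurod1, an early endocrine factor. The control library came from mice of the genotype Neurod1 Cre/+; Isl1f/+, which carry the same Cre and 1 floxed copy of Isl1. In both, tissue of 3 mice aged 1 month was pooled, islet cells were freed with actinomycin D, which stops transcription, sorted for the red reporter tdTomato and made into 1 droplet 3′ library, from females and males for Isl1CKO and from males for the control, per the labels. Against that label, 952 of the 4121 comparison barcodes of the control (23.1%) had Xist, an RNA of female cells, and no Y-linked UMI. Each genotype was thus 1 library of pooled animals, so no difference here has a replicate check, intervals cover counting error only, and neither genotype nor sex can be told apart from the library. PCR copies were collapsed into UMIs, but UMIs of 1 barcode are not independent animals.

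Acinar cells are the exocrine cells of the pancreas. They make proteases such as trypsins, chymotrypsins, elastases and carboxypeptidases as inactive precursors, together with lipases, colipase and amylase, and store them in zymogen granules, while islet endocrine cells pack hormones with granins into dense-core granules. Acinar and endocrine cells descend from shared progenitors in the embryo. In acinar cells the factors Ptf1a and Rbpjl drive the enzyme genes and Bhlha15 shapes the secretory apparatus, whereas Isl1, a LIM homeodomain factor, acts in endocrine cells. Enzyme transcripts are very abundant in acinar cells, and broken cells release them into the suspension from which droplets are filled.

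The Isl1CKO library held 86086781 UMIs and the control library 48685758. Members had a median of 6358 UMIs (1040 to 52614) and 2262 genes, against 8350 UMIs and 2912 genes in the comparison barcodes. The enzyme share of members ran from 0.509% to 72.2%, with a median of 1.14%. The 5 members nearest the threshold had 0.509% to 0.528%, and the 5 barcodes nearest below it had 0.494% to 0.487%. Since the shares were so uneven, members are given in 4 ranges, set after the values were seen: 97 barcodes at 0.5% to 2%, 30 at 2% to 10%, 16 at 10% to 40% and 8 at 40% or more. The last 8 held 123192 of the members' 167708 enzyme UMIs, so the members' enzyme sums rest mostly on these 8, which held 176435 of the members' 1182924 UMIs of any gene.

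**Figure D1:**
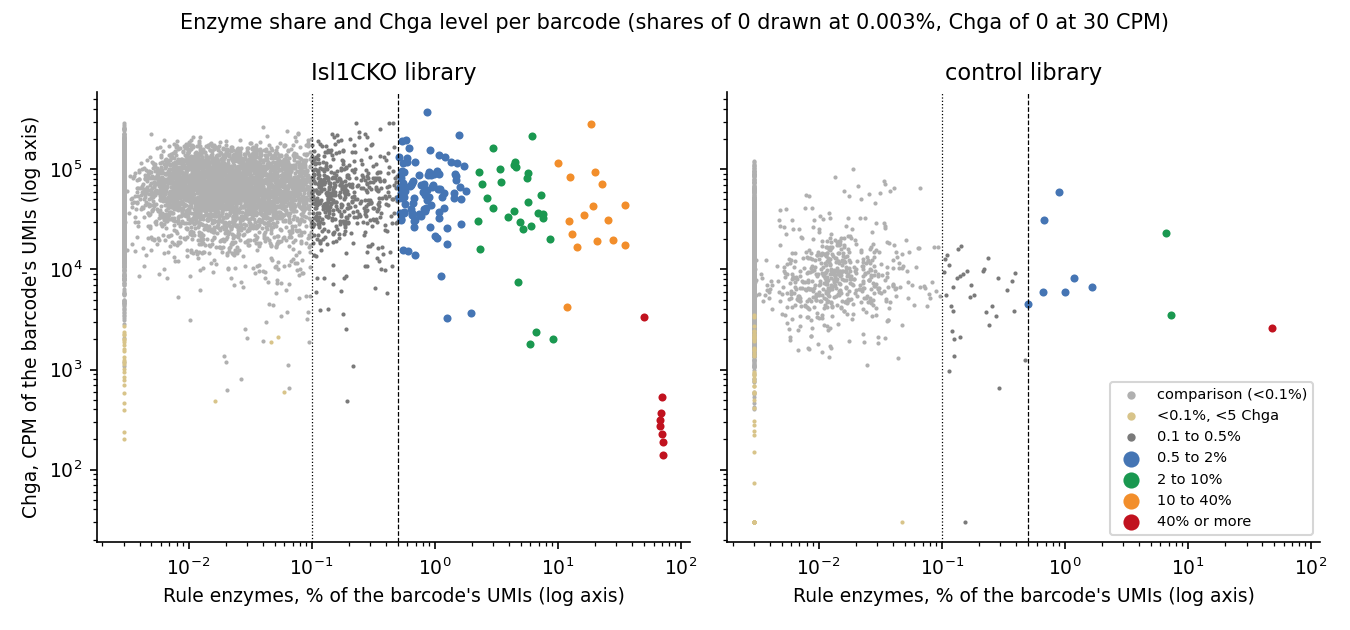
Each point is 1 kept barcode, with the share of its UMIs from the 11 enzyme genes on the x axis (percent, log scale) and its Chga level on the y axis (CPM, the UMIs of a gene per 1000000 UMIs, log scale), in Isl1CKO on the left and control on the right. Most members lay within the Chga range of the comparison barcodes, and the 8 barcodes at 40% or more formed a separate group at low Chga.

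The label Isl1-deleted cells with digestive enzyme transcripts held, as far as endocrine markers go, for most of the 143 barcodes under 40% and not for the other 8. Chga had at least 5 UMIs in 148 members, and 1 of the 3 others lay under 40%. Its median over barcodes was 64367 CPM in the comparison barcodes, 59595 CPM at 0.5% to 2%, 39941 CPM at 2% to 10%, 33246 CPM at 10% to 40% and 293 CPM at 40% or more. The reporter tdTomato, on which the cells were sorted, had a median of 5871 CPM in the comparison barcodes, 6578 CPM at 0.5% to 2%, 7034 CPM at 2% to 10%, 5535 CPM at 10% to 40% and 51.3 CPM at 40% or more. Summed over Isl1CKO barcodes with 1 to 100 UMIs, too few for a cell, Chga had 58798 CPM and tdTomato 6291 CPM. Levels like these alone therefore do not set a cell apart from RNA outside cells. Among kept barcodes, the reporter stayed at the level of the other sorted cells up to a share of 40%. In the top range it did not, and those 8 are called here by their rule, barcodes with 40% or more enzyme UMIs, since they showed little of what marks an endocrine or a sorted cell. Isl1 transcripts counted at the 3′ end do not show whether the floxed part of the gene was removed. Isl1 summed to 353 CPM in the comparison barcodes, 366 CPM at 0.5% to 2%, 317 CPM at 2% to 10% and 260 CPM at 10% to 40%, and it had no UMI in the 8 top barcodes, which allows up to 17.0 CPM. Deletion in the members was thus taken from the genotype and was not shown by the counts.

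The 8 barcodes with 40% or more enzyme UMIs carried acinar transcripts almost to the exclusion of endocrine ones. Their enzyme shares were 72.2%, 71.0%, 70.1%, 70.0%, 69.3%, 68.4%, 67.9% and 50.5%, and their totals in the same order were 28506, 52614, 16894, 17532, 13566, 22420, 21900 and 3003 UMIs. All of these totals but the last thus stood above the comparison median of 8350 UMIs, while the number of genes seen in the same order was only 936, 1288, 715, 563, 707, 839, 854 and 669. Chga had 4, 10, 9, 4, 5, 7, 6 and 10 UMIs in that order. tdTomato had 0, 3, 1, 0, 2, 0, 1 and 1 UMIs. Neurod1, the factor whose locus drives Cre, and Isl1 had no UMI in any of the 8. With all 46 acinar genes on the lists counted, 88.5% of their UMIs were acinar.

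Leaving acinar UMIs out of the totals did not bring the endocrine transcripts of these 8 to the comparison level. As CPM of non-acinar UMIs, Chga stood at 2721 in them and at 70910.4 in the comparison barcodes. Chgb, the gene of chromogranin B, stood at 445 in them and at 22782 in the comparison barcodes. Ribosomal protein genes made up 37.4% of their non-acinar UMIs, against 14.0% in the comparison barcodes. As a share of all UMIs, ribosomal protein genes were at 4.28% in them, against 14.0% in the comparison barcodes. Mitochondrial transcripts had a median of 0.357% of non-acinar UMIs in them, against 1.49% in the comparison barcodes. Xist and Y-linked transcripts were both at 0 in 7 of the 8, and 1 had Xist alone. Malat1, an RNA kept in the nucleus, stood at 4798 in them and at 28880.2 in the comparison barcodes, again as CPM of non-acinar UMIs. The Malat1 UMIs of these 8 were found in 3 barcodes, and 95.9% of them in 1 barcode.

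The rule's own enzymes are given as a description, because they chose the members. Ctrb1, the gene of chymotrypsinogen B and the most abundant of the 11, summed to 28.8 CPM in the comparison barcodes, 2201 CPM at 0.5% to 2%, 14977 CPM at 2% to 10%, 69211 CPM at 10% to 40% and 208094 CPM at 40% or more. The trypsinogen gene Try5 followed with 24.1, 1490, 9727, 36308 and 147244 CPM over the same 5 groups. Prss2, another trypsinogen gene, had 12.0, 773, 5120, 18649 and 74673 CPM. Clps, which makes the colipase that anchors pancreatic lipase, had 19.8, 1359, 6621, 25499 and 68609 CPM. Each of these climbed with the summed share, as the rule required. Pnlip, the lipase itself, had 4.00, 301, 1555, 6691 and 19055 CPM, and Cpa1, a carboxypeptidase, had 6.38, 479, 2365, 8913 and 32340.5 CPM. Reg1, whose product is a secreted protein of the regenerating family, had 4.91, 373, 2535, 10096 and 25811 CPM.

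The enzyme share was spread over the set and did not rest on 1 gene. Of the 11 enzymes, members had UMIs of at least 2 and a median of 10, and 67 members had all 11. At 0.5% to 2% the median was 9 of 11, at 2% to 10% all 11 were seen in 22 of 30 barcodes, at 10% to 40% in 14 of 16, and at 40% or more in 8 of 8. In the comparison barcodes the median was 0 and the highest 9, and 50.1% of them held no enzyme UMI at all. Of 29 further acinar secretory genes that the rule did not use, members had a median of 9, while 69.2% of the comparison barcodes had none. Only 7 members had none of the 29, all of them at 0.5% to 2%. Depth limits such counts of genes seen, and it was lower in members than in the comparison barcodes except at 40% or more, where the median was 19716 UMIs.

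Within the Isl1CKO library, Try5 and Cela2a kept like parts of the enzyme UMIs across groups, while Clps and Cpb1 moved more. Parts of a total cannot move as far as the summed share did, so the 2 are not set against each other. Ctrb1 took 23.2% of enzyme UMIs in the comparison barcodes, 25.1% at 0.5% to 2%, 28.0% at 2% to 10%, 32.0% at 10% to 40% and 29.8% at 40% or more. Over the comparison barcodes, those between the limits, the 4 ranges and free RNA, Try5 took between 16.8% and 21.3% of enzyme UMIs and the elastase gene Cela2a between 2.37% and 2.68%. Free RNA is here the RNA of barcodes with 1 to 100 UMIs, too few for a cell. In barcodes with 1 to 50 UMIs, Try5 took 23.3% and Cela2a 2.09%. Clps went the other way from Ctrb1, with 15.5%, 12.4% and 11.8% in the 3 ranges up to 40%, and 9.83% at 40% or more. In the control library the mix was another one. Try5 took 7.43% of enzyme UMIs in the 10 control barcodes that met the same rule and 5.40% in control free RNA, against 21.3% in Isl1CKO free RNA.

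**Figure D2:**
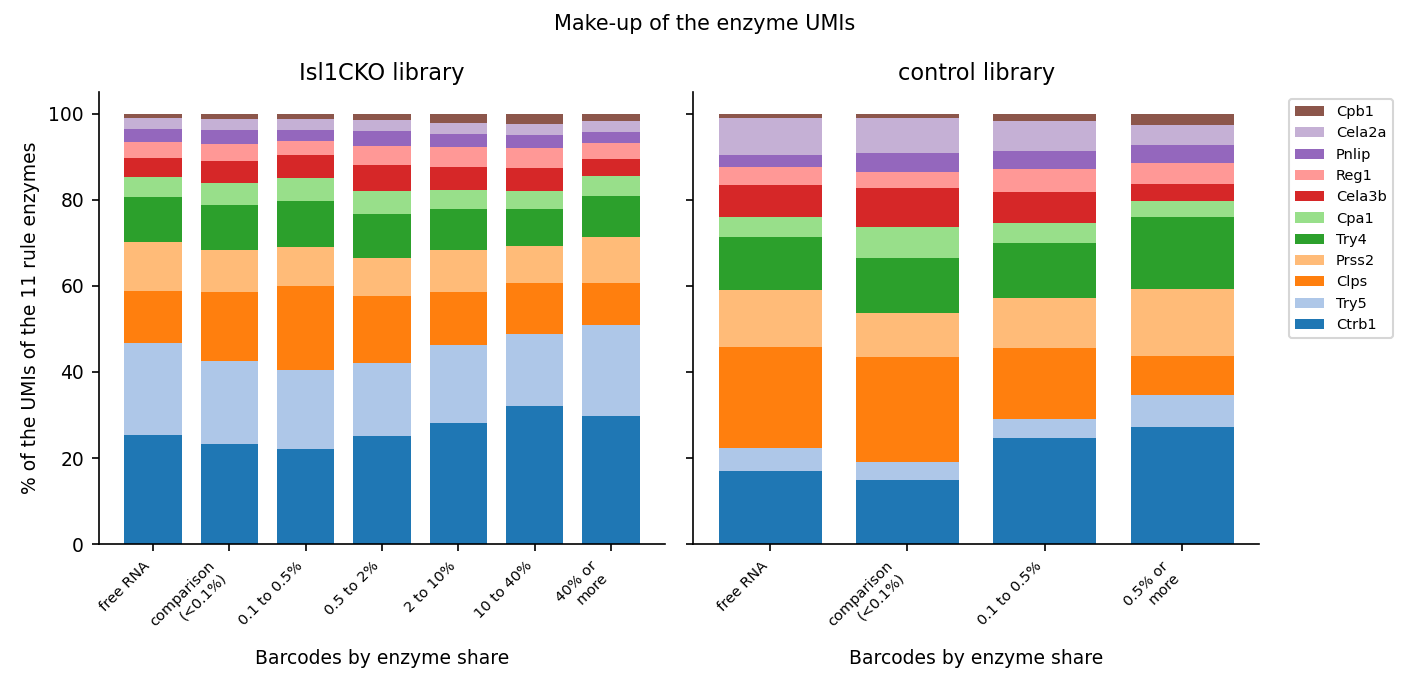
Bars show how the UMIs of the 11 rule enzymes were divided among the genes (percent of enzyme UMIs) in each group of barcodes and in free RNA, for both libraries. Among the Isl1CKO bars Clps ranges from 9.83% to 19.5%. Try5 takes a larger part of the Isl1CKO bars, 16.8% to 21.3%, than of the control bars, 4.01% to 7.43%.

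Free RNA held enzyme transcripts in this library, at a share that moved with the limit on UMIs. Enzyme genes made up 0.483% of UMIs in Isl1CKO barcodes with 1 to 50 UMIs, 0.904% in those with 1 to 100 and 2.90% in those with more than 100 and up to 500 UMIs. Members at 0.5% to 2% had 0.877% as a group, which is 97.0% of the share in free RNA of 1 to 100 UMIs and lies above that of 1 to 50 UMIs, members at 2% to 10% had 5.34%, members at 10% to 40% had 21.6% and the top 8 had 69.8%. The comparison barcodes had 0.0124%, or 1.37% of the share in free RNA of 1 to 100 UMIs, and the 484 barcodes between the limits had 0.199%. The share in free RNA was thus far above that of most cells in the same library. In the control library, free RNA held 0.0288% and 10 of 4219 kept barcodes met the rule (0.237%, interval 0.114 to 0.435). Whether free RNA accounts for the enzyme UMIs of any member was not tested.

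The trypsinogen genes Try4 and Try5 can be counted for each other, so their split is uncertain. Both lie on chromosome 6 in mouse build GRCm38.p6, Try4 at chr6:41302269-41305532 on the plus strand and Try5 at chr6:41311233-41316841 on the minus strand, and Prss2 lies at chr6:41521787-41525079 on the plus strand. Their coding sequences were 97.4% identical between Try4 and Try5, with 19 differences, while Prss2 was 91.7% identical to Try4 and 90.4% to Try5. The libraries read transcripts near the 3′ end, so the last 90 coding bases of the 3 reference transcripts are shown. They are followed by 47 transcript bases in Try5 and Try4 and 60 in Prss2. Capitals mark the 16 positions that are not the same in all 3, and the other 74 are identical.

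Try5: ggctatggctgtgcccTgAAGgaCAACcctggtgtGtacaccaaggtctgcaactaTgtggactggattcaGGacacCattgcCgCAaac

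Try4: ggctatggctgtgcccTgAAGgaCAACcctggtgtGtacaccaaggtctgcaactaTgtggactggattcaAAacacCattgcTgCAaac

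Prss2: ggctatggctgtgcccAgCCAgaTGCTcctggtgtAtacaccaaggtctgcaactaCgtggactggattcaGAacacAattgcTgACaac

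Most capitals set Prss2 apart from the other two, which match each other at all but a few of them, and Try4 and Try5 shared a run of 104 identical bases within the last 300 of their transcripts. The acinar genes 1810009J06Rik and Gm2663 (99.5% identical), Prss3 and Gm10334 (99.1%) and Amy2a2 and Amy2a5 (100%) carry the same doubt, and the annotated spans of Cela2a and Ctrc overlap on the same strand of chromosome 4.

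The stretch before the start of an enzyme gene is where the acinar factors bind, and the letters they are known to use were looked for. The Ptf1a complex binds an E-box followed by a TC-box. The letters searched were CACCTG for the E-box and TTTCCC for the TC-box, both on either strand, and TATAAA on the gene's strand, within the 250 bases before the RefSeq start. The windows of Prss2, with all 3 motifs, of Ctrb1, the most abundant of the 11, and of the endocrine gene Chga are shown 5′ to 3′ on the gene's strand, taken from RefSeq on GRCm38.p6, with matches in capitals.

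Prss2, chr6:41521526-41521775, plus strand: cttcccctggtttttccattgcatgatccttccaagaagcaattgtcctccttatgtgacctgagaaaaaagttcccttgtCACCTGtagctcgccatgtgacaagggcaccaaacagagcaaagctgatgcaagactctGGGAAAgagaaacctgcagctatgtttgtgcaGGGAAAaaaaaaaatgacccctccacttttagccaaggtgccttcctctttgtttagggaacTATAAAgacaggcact

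Ctrb1, chr8:111691011-111691260, minus strand: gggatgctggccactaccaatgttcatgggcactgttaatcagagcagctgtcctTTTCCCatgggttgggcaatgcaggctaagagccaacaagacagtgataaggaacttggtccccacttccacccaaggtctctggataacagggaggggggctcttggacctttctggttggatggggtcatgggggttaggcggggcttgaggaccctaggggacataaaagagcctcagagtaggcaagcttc

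Chga, chr12:102554691-102554940, plus strand: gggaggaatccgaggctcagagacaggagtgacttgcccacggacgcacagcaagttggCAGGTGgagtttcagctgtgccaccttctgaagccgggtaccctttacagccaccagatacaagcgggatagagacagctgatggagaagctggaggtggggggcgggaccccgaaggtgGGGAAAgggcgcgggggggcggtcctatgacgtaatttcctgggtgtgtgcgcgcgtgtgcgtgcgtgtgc

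In Prss2 the E-box lay 169 to 164 bases before the start, with TC-boxes on the opposite strand 110 to 105 and 78 to 73 bases before it and TATAAA 16 to 11 bases before it. Ctrb1 held a TC-box 195 to 190 bases before its start, and Chga held both an E-box and a TC-box, 191 to 186 and 71 to 66 bases before its start. A window was found for 9 of the 11 rule genes, of which 5 held CACCTG, 5 held TTTCCC, 2 held both (Prss2 and Cela2a) and 4 held TATAAA. Among 27025 genes with a window, CACCTG stood in 17.1%, TTTCCC in 21.9%, both in 3.63% and TATAAA in 8.12%. Of 14 granule genes with a window, 5 held CACCTG, 3 held TTTCCC and none held TATAAA. These letters describe the windows and show no binding.

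Acinar secretory genes outside the rule went with the enzymes. Of 29 such genes, 25 reached 5 CPM in the members or in the comparison barcodes, and all 25 were at least 2-fold higher in the members. Most passed the filter only through the members, so that count was largely fixed by the filter. Over all 10644 genes measured in this comparison, 2.43% were at least 2-fold higher in the members and 2.77% at least 2-fold lower, as 259 and 295 genes. With acinar genes left out of the totals these were 470 and 129 genes. The 2-fold limit is a size, not a test, and log2 ratios were taken after adding 1 UMI to each sum. Zg16, which codes for a lectin of the zymogen granule membrane, summed to 3.70 CPM in the comparison barcodes, 295 CPM at 0.5% to 2%, 1831 CPM at 2% to 10%, 8117 CPM at 10% to 40% and 19633 CPM at 40% or more. Cela1, an elastase gene, had 5.69, 249, 1644, 7429 and 22785 CPM over the same groups. Gp2, the gene of the main glycoprotein of zymogen granule membranes, had 0.149, 7.79, 89.5, 411 and 1672 CPM.

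Counted per 100 enzyme UMIs, Zg16 and Sycn changed far less between groups than in CPM. Zg16 had 2.98 UMIs per 100 enzyme UMIs in the comparison barcodes, 3.36, 3.43 and 3.76 in the 3 ranges up to 40%, 2.81 at 40% or more and 3.33 in free RNA. Sycn, which codes for syncollin of the zymogen granule, had 1.95, 1.92, 2.03 and 2.14 per 100 in the comparison barcodes and the 3 ranges, 1.37 at 40% or more and 1.82 in free RNA. Gp2 was less even, with 0.0889 per 100 at 0.5% to 2% and 0.239 at 40% or more. Rnase1, a pancreatic ribonuclease, and Reg4, a member of the regenerating family, departed from this in the comparison barcodes, where Rnase1 had 7.42 UMIs per 100 enzyme UMIs, against 3.06 at 0.5% to 2%, and Reg4 had 5.46, against 0 in all members. Amylase was nearly missing in the counts: Amy2a1, Amy2a2 and Amy2a5 had no UMI and Amy2b, which the reference annotates as a pseudogene, had 24 in all members. Amy2a2 and Amy2a5 have identical coding sequences, and Amy2a1 matches both over its 735 coding bases. Amylase levels therefore cannot be read from these counts.

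Regenerating proteins, secreted proteins that rise in the injured exocrine pancreas, were found with the enzymes, apart from Reg4, which members lacked. Of 6 such genes, 5 were at least 2-fold higher in all members and 1 at least 2-fold lower. Over all genes measured these shares were 2.43% and 2.77%. All 5 higher genes passed the filter of 5 CPM through the members alone, so they had to be higher. Reg4 passed it through the comparison barcodes alone, so it had to be lower. Reg2 summed to 1.18 CPM in the comparison barcodes, 71.7 CPM at 0.5% to 2%, 334 CPM at 2% to 10%, 2105 CPM at 10% to 40% and 4483 CPM at 40% or more. Reg3b had 0.759, 26.5, 289, 1132 and 2857 CPM, and Reg3a had 0.258, 10.9, 28.5, 151 and 629 CPM over the same groups.

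Among factors and machinery of acinar cells, the stress-induced chromatin regulator Nupr1 stood out by its level. It summed to 2.03 CPM in the comparison barcodes, 67.0 CPM at 0.5% to 2%, 208 CPM at 2% to 10%, 637 CPM at 10% to 40% and 3321 CPM at 40% or more. Nupr1 thus passed the filter of 5 CPM through the members alone and had to be higher in them. The 8 top barcodes had 92, 181, 56, 36, 47, 55, 114 and 5 Nupr1 UMIs, in the order of their shares. Nupr1 had 0.764 UMIs per 100 enzyme UMIs at 0.5% to 2%, 0.389 at 2% to 10%, 0.295 at 10% to 40%, 0.476 at 40% or more and 0.465 in free RNA, but 1.64 in the comparison barcodes. Transcription factors of acinar cells were at the limit of detection even in the top 8 barcodes: Ptf1a and Rbpjl had 1 UMI each, and Bhlha15 and Nr5a2 had none. Xbp1, a factor of the secretory stress response made in both cell types, had 34.0 CPM in those 8 and 141 CPM in the comparison barcodes. These are parts of all UMIs, of which acinar genes took 88.5% in the 8, so they give no direction for Xbp1 among non-acinar transcripts. Pdia2, a protein disulfide isomerase of acinar cells, had 249 CPM in the 8 and 0.108 CPM in the comparison barcodes.

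Markers of duct cells did not move as a group. Of 12 duct genes measured, 3 were at least 2-fold higher and 1 at least 2-fold lower in members, against 2.43% and 2.77% of all genes measured. Of these 3, Tff2 and Muc1 reached the limit of 5 CPM in members alone, so they had to be higher. Tff2, the gene of a secreted trefoil peptide, had 0.542 CPM in the comparison barcodes, 9.35, 65.1 and 327 CPM in the 3 ranges up to 40% and 708.5 CPM at 40% or more. Clu, which codes for clusterin, had 78.6 CPM in the comparison barcodes, 79.5, 134 and 235 CPM in the 3 ranges, and 697 CPM at 40% or more. The duct keratin gene Krt7, on the other hand, had 343 CPM in the comparison barcodes, 380.4, 220 and 159 CPM in the 3 ranges and no UMI in the top 8. Sox9, a factor of duct and progenitor cells, and Spp1, the gene of osteopontin, had no UMI in the top 8 either. Acinar genes took 88.5% of the UMIs of these 8, so such counts of 0 rest on few other UMIs.

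**Figure D3:**
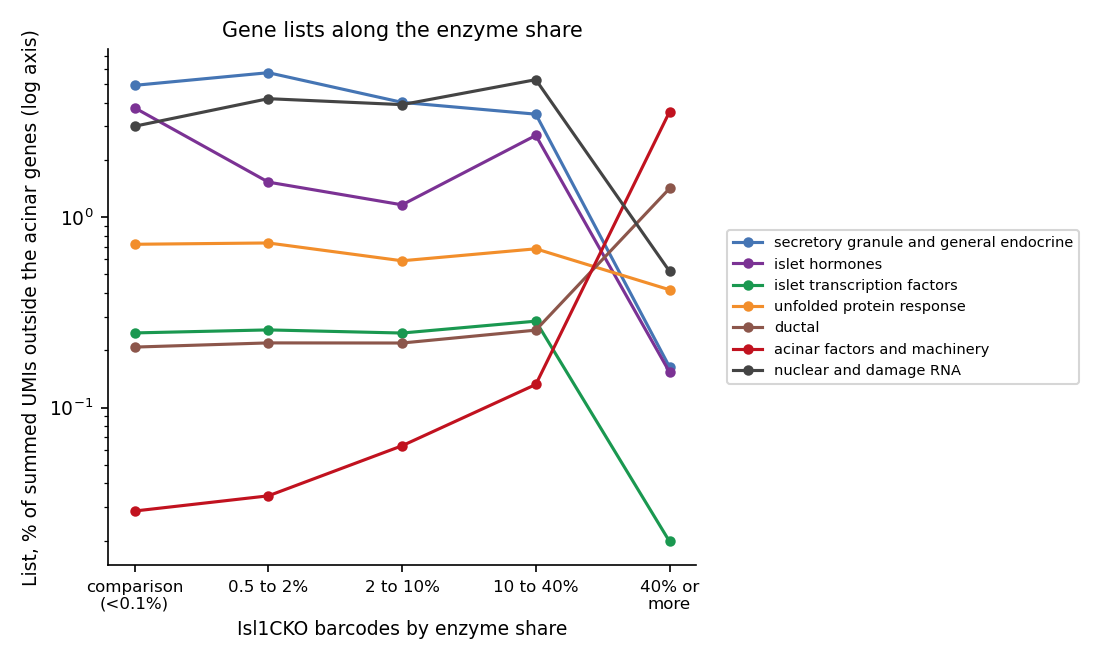
Points show the summed level of several gene lists as a percent of the UMIs outside the acinar genes (log scale), in the comparison barcodes and the 4 ranges of enzyme share of Isl1CKO. Granule genes and islet transcription factors stay near the comparison level up to 40% and lie far lower at 40% or more, at 0.163% and 0.0198%, while acinar factors and machinery sum to 0.0286% in the comparison barcodes, 0.0344% at 0.5% to 2% and 3.58% at 40% or more. At 0.5% to 2%, 1 gene of 7 measured in that list, Nupr1, was at least 2-fold higher, against 6.53% of all genes measured. Nupr1 passed the filter of 5 CPM through the members alone, so it had to be higher. The list's median log2 ratio was −0.21.

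Genes shared by endocrine cells were found in members up to 40% near the level of the comparison barcodes, with granule genes somewhat lower at 2% to 40%. The list of 18 granule and general endocrine genes summed to 4.92% of non-acinar UMIs in the comparison barcodes, 5.74% at 0.5% to 2%, 4.01% at 2% to 10%, 3.48% at 10% to 40% and 0.163% at 40% or more. Islet transcription factors summed to 0.247%, 0.256%, 0.246%, 0.284% and 0.0198% of non-acinar UMIs over the same 5 groups. The top 8 barcodes thus differed from the other members in these lists by more than any of the 3 lower ranges differed from the comparison barcodes. Neurod1 had 359 CPM in the comparison barcodes, 380.4 CPM at 0.5% to 2%, 415 CPM at 2% to 10% and 411 CPM at 10% to 40%. Pax6, an endocrine homeodomain factor, had 328, 393, 399 and 277 CPM in the same order. Across the 143 members under 40%, the enzyme share and the summed share of Chga and the granule genes in all UMIs had a Spearman rho of −0.28, and of −0.18 when acinar UMIs were left out of the totals. The 143 share 1 library, and the enzyme UMIs themselves lower every other share.

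The 97 members at 0.5% to 2% could be set most directly against the comparison barcodes, since the enzymes took so little of their totals. Whether these members made the enzyme transcripts themselves was not tested. Against the comparison barcodes, 699 of 10699 measured genes were at least 2-fold higher in them (6.53%) and 169 at least 2-fold lower (1.58%), and the median log2 ratio of all measured genes was 0.16. Scaled by TMM factors, a normalization that trims extreme genes, these were 511 and 248 genes. Of 18 measured islet transcription factors, 0 were at least 2-fold higher and 1, the alpha cell factor Irx1, at least 2-fold lower. Of 17 granule and general endocrine genes, 0 were at least 2-fold higher and 1, the amino acid transporter gene Slc38a5, at least 2-fold lower. Of 8 islet hormone genes, 0 were at least 2-fold higher and 5 at least 2-fold lower, with a median log2 ratio of −2.06. Of 8 gut hormone and neuropeptide genes, 5 were at least 2-fold lower. Of 6 macrophage and leukocyte genes measured, 4 were at least 2-fold lower. Hormone genes were thus 2-fold lower in a larger share of their lists than islet factors, granule genes or all measured genes.

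Gcg, the glucagon gene, summed to 164 CPM in members at 0.5% to 2% and 1269 CPM in the comparison barcodes (log2 ratio −2.94, interval −3.25 to −2.68). Ins2, an insulin gene, summed to 4184 CPM in them and 18740 CPM in the comparison barcodes (log2 ratio −2.16, interval −2.22 to −2.11). A few cells carried most of these sums. The median of Ins2 over barcodes was 343 CPM in these members and 287 CPM in the comparison barcodes, the other way round from the sums. A single barcode held 37.4% of the Ins2 UMIs of these 97 and a single one 43.8% of their Gcg UMIs. Of all 151 members, 0 had 1% or more of their UMIs from Gcg (Clopper-Pearson interval 0 to 2.41%), against 2.25% of the comparison barcodes, a share inside that interval. For insulin, 7.95% of members and 11.7% of comparison barcodes reached 1% of UMIs.

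Ttr, the gene of transthyretin, a plasma carrier protein made in islets, summed to 16428 CPM in members at 0.5% to 2% and 43194 CPM in the comparison barcodes, with medians over barcodes of 5823 CPM and 9482 CPM in the same order. Its log2 ratio was −1.39. Slc38a5, which imports amino acids into alpha cells, had 117 CPM in these members, 80.0% of it in 1 barcode, and 631 CPM in the comparison barcodes. After thinning each barcode to 1000 UMIs, 2.06% of these members and 12.9% of the comparison barcodes had an Slc38a5 UMI, and 14.4% and 34.7% did before thinning, at median depths of 5855 and 8350 UMIs. Irx1 had 32.7 CPM in members and 88.9 CPM in the comparison barcodes. Chgb went the other way, with 34827 CPM in members and 22778 CPM in the comparison barcodes and medians of 13587 CPM and 8356 CPM. Neat1, a nuclear RNA, had 112 CPM in members and 58.5 CPM in the comparison barcodes.

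Members at 0.5% to 2% were more often shallow, and members were a smaller share of deeper barcodes. Of kept barcodes with 1000 to under 3000 UMIs 5.20% were members, against 1.78% of those with 3000 to under 8000 and 1.31% of those with 8000 or more. Xist without Y-linked UMIs was seen in 73.5% of members and 65.5% of comparison barcodes, and Y-linked without Xist UMIs in 10.6% of members and 20.9% of comparison barcodes. Members were thus found more among barcodes with Xist, 2.06% of them, than among those with Y-linked transcripts, 0.947%. The pool mixed females and males, so sex cannot be told apart from animal.

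**Figure D4:**
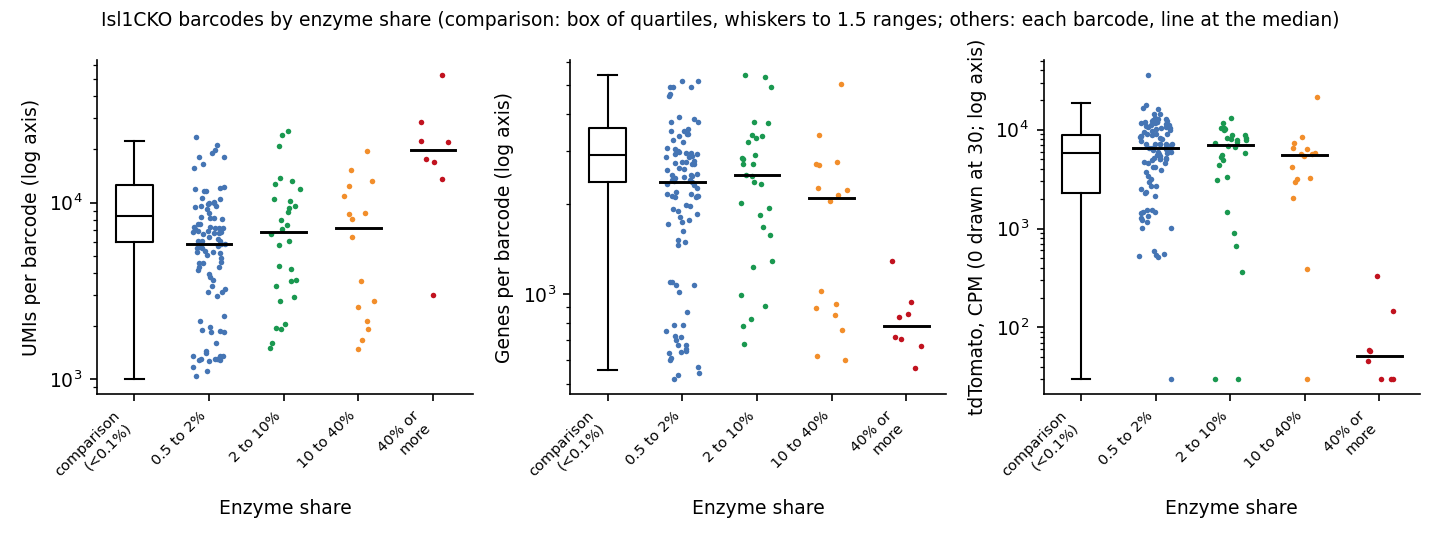
The 3 panels show UMIs, genes and tdTomato (CPM) per barcode on log axes, as a box of quartiles for the comparison barcodes and as points with a line at the median for the 4 ranges of enzyme share in Isl1CKO. At 40% or more the median is 19716 UMIs with only 777 genes, and tdTomato lies below nearly all other members.

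Within groups of like depth or sex markers, the lower Gcg, Ins2 and Ttr kept their direction. As CPM of non-acinar UMIs, the log2 ratio of Ttr between members at 0.5% to 2% and comparison barcodes was −0.62 for barcodes with 1000 to under 3000 UMIs (24 members against 503), −0.49 with 3000 to under 8000 (45 against 3032) and −1.31 with 8000 or more (28 against 4033). It was −0.87 for barcodes with Xist alone (70 against 4957) and −1.78 with Y-linked transcripts alone (14 against 1581). Gcg had −1.59, −0.72 and −3.27 in the 3 depth groups, in the same order, and −2.63 and −5.66 by sex marker. Of these, −1.59 rested on 3 Gcg UMIs of members (interval −4.29 to −0.44) and −5.66 on 2 (−9.29 to −4.39). The size of the difference therefore depended on which barcodes were set side by side, and for Ttr and Gcg it was smallest at 3000 to under 8000 UMIs. Nupr1 had log2 ratios between 4.80 and 5.68 in the 5 groups. The highest rested on 3 UMIs in members and 1 in the comparison barcodes (interval 2.62 to 11.98). Isl1 had 0.36, −0.02 and 0.02 in the depth groups and 0.01 and 0.45 by sex marker, so its sign was not the same in every group.

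**Figure D5:**
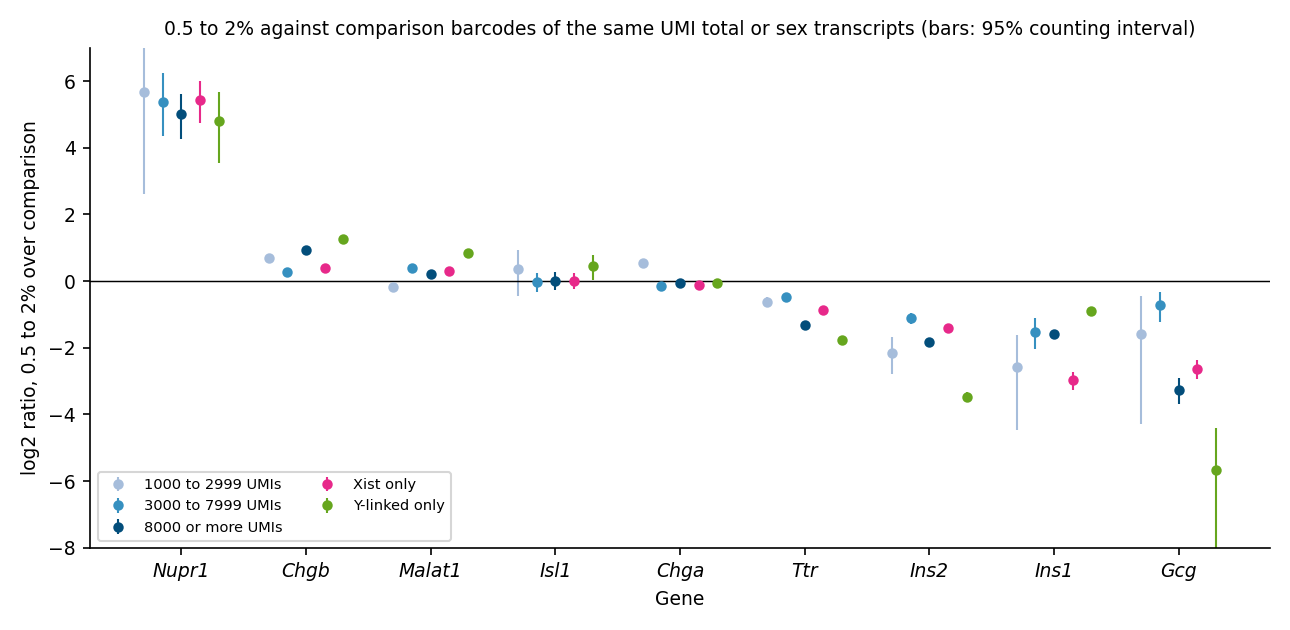
Points show the log2 ratio of each gene between Isl1CKO members at 0.5% to 2% and comparison barcodes, as CPM of non-acinar UMIs, within 3 depth groups and 2 sex marker groups, with 95% counting intervals. Nupr1 and Chgb lie above 0 in every group and Ttr, Ins2, Ins1 and Gcg below 0, and an interval of Nupr1 and one of Gcg run past the axis.

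Doublets were looked for with a doublet score from simulated pairs of barcodes (Scrublet). The automatic threshold marked no Isl1CKO barcode, so it did not work there. At the threshold found for the control library, which marked 5.90% of control barcodes, 1 of 151 members (0.662%) and 4.56% of the comparison barcodes were over it. Whether members held an endocrine and an acinar cell in 1 droplet was not tested. Macrophage and leukocyte genes summed to 0.00685% of UMIs in members and 0.0164% in the comparison barcodes, endothelial genes to 0.00296% and 0.00307%, and stromal genes to 0.000338% and 0.000764%. The 8 top barcodes had no UMI of these 3 lists. Of all kept barcodes, 8 sequences occurred in both libraries, none of them a member.

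In the control library, the same rule found 10 of 4219 barcodes, 7 of them at 0.5% to 2%, 2 at 2% to 10% and 1 at 40% or more. Their enzyme shares were 48.5%, 7.32%, 6.68%, 1.66%, 1.18%, 1.01%, 0.897%, 0.679%, 0.666% and 0.507%. Chga had 16, 49, 30, 56, 76, 35, 763, 55, 62 and 9 UMIs in the same order, so all 10 had at least 5. The 10 barcodes held 71942 UMIs in all, too few for many genes. Between Isl1CKO members and control members, 942 of 10715 genes (8.79%) were at least 2-fold higher in Isl1CKO and 3029 (28.3%) at least 2-fold lower. With every barcode weighted alike these were 5601 and 1593 genes. Of 8 islet hormone genes, 0 were at least 2-fold higher and 7 at least 2-fold lower in Isl1CKO members, where they summed to 1.24% of UMIs against 34.4% in control members. The comparison barcodes differed in the same direction, with 3.75% in Isl1CKO and 42.3% in control, so this gap was not particular to members. Of 25 other acinar genes, 11 were at least 2-fold higher in Isl1CKO members and 1 at least 2-fold lower. The median log2 ratio of these 25 ran from 0.033 to 0.995 across scalings, equal weight per barcode included. The control barcode at 40% or more held 2972 of the 4600 enzyme UMIs of control members, so this contrast rests on few barcodes. Against control comparison barcodes, control members had 3852 of 10022 genes at least 2-fold higher (38.4%) and 268 lower (2.67%), or 1772 and 4174 genes with every barcode weighted alike, as 1 UMI in so small a sum already passes the filter.

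The 484 Isl1CKO barcodes at 0.1% to 0.5% resembled the comparison barcodes in most genes. Only 129 of 10627 genes (1.21%) were at least 2-fold higher in them and 29 (0.273%) at least 2-fold lower. Gcg had 311 CPM in them and 1269 CPM in the comparison barcodes, and Ttr had 24438 CPM in them and 43194 CPM in the comparison barcodes. For both genes these sums lay between those of the comparison barcodes and of members at 0.5% to 2%. The medians over barcodes did not show this order. For Ttr the median was 5739 CPM in these barcodes, 5823 CPM at 0.5% to 2% and 9482 CPM in the comparison barcodes. For Gcg it was 0 in each of these groups. Ghrl, the ghrelin gene, had 2614 CPM in them and 20.9 CPM in the comparison barcodes, but 99.5% of its UMIs in them came from 1 barcode.

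The 8 barcodes at 40% or more differed from the comparison barcodes in most measured genes, as enzymes took most of their UMIs. Of 10426 genes, 319 were at least 2-fold higher (3.06%) and 7452 at least 2-fold lower (71.5%). With acinar UMIs left out of the totals these counts were 6135 higher and 532 lower, but the 1 UMI added to each sum then weighs so much against the small total of these 8 that low genes with no UMI in them count as higher, so these 2 counts give no direction. All 17 measured granule genes were at least 2-fold lower in them on the plain scale. The log2 ratio of Chga was −7.80 on that scale and −4.68 as CPM of non-acinar UMIs, and that of Chgb was −8.65 and −5.53. All 16 genes of signal peptide recognition and translocation into the endoplasmic reticulum were at least 2-fold lower on the plain scale, with a median log2 ratio of −3.31, and with acinar UMIs left out their median was −0.19.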

How the data were processed

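Islet cells of 2 libraries, 1 per genotype, were profiled with 10x Chromium Single Cell 3′ v3.1 kits, per the labels. The authors deposited UMI counts for 46984 features, the tdTomato reporter included, in 6794880 barcodes of each library, with no filter for cells seen in the files. STARsolo, STAR 2.7.3a, Seurat 4.3.0.1 and GRCm38.p6 appear in the submitters' processing notes, with no role given. Of 74 duplicated symbols the first feature was used.

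Kept were 8231 barcodes of Isl1CKO and 4219 of control, those that reached 1000 UMIs and 500 genes without passing 15% mitochondrial transcripts. As cells of 1 library are not replicates, UMIs were summed per group and given as CPM with exact Poisson intervals, log2 ratios (1 added to each sum) with exact conditional intervals and shares with Clopper-Pearson intervals, all at 95% and for counting error only, and no test was run. Genes with at least 5 CPM in either group were measured, and a 2-fold difference was the size limit. A count of 0 was taken to allow up to 3 counts. Shares of barcodes with a UMI were also taken after thinning each barcode to 1000 UMIs. The steps were tested on simulated data. Genes named came from 19 lists (244 of 245 symbols found) and from the 15 with the largest ratio in each direction. The members and the lists were chosen with earlier results of these data known. The ranges of the enzyme share, the UMI ranges and the comparisons of single ranges were added after the values were seen. Scalings by totals without 46 acinar genes, by TMM (edgeR 4.0.16) and by DESeq2 1.42.0 size factors, and equal weight per barcode, were alternatives. Work was done in Python 3.11.15 with scanpy 1.11.5 (Scrublet, expected rate 0.05) and in R 4.3.3. Promoter windows came from RefSeq on GRCm38.p6, positions and transcripts from GENCODE on the same build.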

Additional observations from a re-analysis of the deposited data

How the results depend on the processing

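No paired analysis was possible because each genotype had 1 library and both share a single replicate number. For the share of barcodes that were members, the Isl1CKO value of 1.83% was 3.47% with a limit of 0.25% enzyme UMIs, 1.02% with 1% and 0.462% with 5%, and the control value of 0.237% was 0.450% with 0.25% and 0.0711% with 5%. Of 124 alternatives run for these shares and for counts of genes at least 2-fold apart, 59 moved the value and 65 did not, a count being moved where it left 1.5 times its first value.

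For members against comparison barcodes, the 259 genes higher were 470 with acinar genes left out of the totals, 614 with equal weight per barcode, 9896 with no filter, 68 at 20 CPM, 2256 in members with fewer than 5 Chga UMIs, 628 with Xist alone, 3337 with Y-linked transcripts alone, 523 without barcodes at 10% or more, 3855 at 1000 to under 3000 UMIs and 1281 at 3000 to under 8000. The 295 lower were 129 with acinar genes left out, 185 by TMM, 184 by DESeq2 size factors, 554 with equal weight, 474 with no filter, 82 at 20 CPM, 3396 with a 5% limit, 3110 in members with fewer than 5 Chga UMIs, 178 with Xist alone, 157 without barcodes at 40% or more, 151 without those at 10% or more and 621 at 8000 or more UMIs. Small sums weigh on some of these counts. In the 37 members at 1000 to under 3000 UMIs, the 16 with Y-linked transcripts alone and the 3 with fewer than 5 Chga UMIs, a few UMIs already passed the filter. Their higher counts give no direction. Of the genes past the limit, 46.8% were higher on plain totals, 78.5% with acinar genes left out, 64.8% by TMM and 64.9% by DESeq2 size factors.

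For members at 0.5% to 2%, the 699 higher were 3242 of 11428 measured with Y-linked transcripts alone, 11505 with no filter and 139 at 20 CPM. In the 3 depth groups from low to high they were 5381 of 11281, 1316 of 10928 and 1596 of 11039. In these members 1 UMI made 26.6 CPM at 1000 to under 3000 UMIs and 7.18 CPM with Y-linked transcripts alone. There 1 UMI already passed the filter of 5 CPM, so those 2 higher counts give no direction. The 169 lower were 294 with Y-linked transcripts alone, 387 at 3000 to under 8000 UMIs, 267 at 8000 or more, 654 with equal weight and 36 at 20 CPM. Here 80.5% of genes past the limit were higher on plain totals, and 67.3% by TMM and 67.7% by DESeq2 size factors.

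For the 8 barcodes at 40% or more, the 319 higher were 6135 with acinar genes left out, 4282 by TMM, 4308 by DESeq2 size factors, 12338 with no filter and 95 at 20 CPM, and the 7452 lower were 532, 1269 and 1246 under those 3 scalings, whose shifts of the median log2 ratio were 3.13, 2.46 and 2.47. Under these 3 scalings the 1 UMI added to each sum puts low genes with no UMI in the 8 past the limit, so the higher counts give no direction.

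For control members against control comparison barcodes, the 3852 higher were 6373 with a 5% limit, 1772 with equal weight, 14896 with no filter and 1594 at 20 CPM, and the 268 lower were 523 by TMM, 503 by DESeq2 size factors and 4174 with equal weight. For Isl1CKO members against control members, the 942 higher were 164 with a 5% limit and 5601 with equal weight, and the 3029 lower were 5580 with that limit, 1593 with equal weight, 7211 with no filter and 1214 at 20 CPM.

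In members at 0.5% to 2%, Ttr, Gcg, Ins1, Ins2, Slc38a5, Irx1, Gc and Sct were lower and Chgb, Nupr1, Nkx6-1, Pdx1, Neat1 and tdTomato higher under all 10 settings. This holds for the sign only. At their smallest, Gc stood at −0.006, Irx1 at −0.15, Nkx6-1 at 0.04 and tdTomato at 0.11, and the first of these is no difference. Ttr ran from −1.79 to −0.50, Gcg from −5.68 to −0.74, Ins2 from −3.49 to −1.13, Chgb from 0.27 to 1.25 and Nupr1 from 4.53 to 5.66. The lowest Gcg value came from barcodes with Y-linked transcripts alone, where members had 2 Gcg UMIs. Isl1 ran from −0.08 to 0.43. Pyy had a log2 ratio of 2.04, 1.53 and −4.07 in the 3 depth groups from low to high. Over all members against comparison barcodes, Chgb ran from −8.08 to 1.22, Malat1 from −7.62 to 0.98, Meg3 from −4.40 to 1.06, Neat1 from −1.48 to 1.76 and Xist from −3.40 to 7.07 across 15 settings, so their signs turned with the setting. Settings that left fewer than 3 barcodes in a group were not run. With 1 library per genotype no replicate could be left out.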
